A study of Mus musculus with 6 samples.

Results

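Rbmxl2 is an autosomal retrogene, an intronless copy of the X-linked Rbmx that arose from a copied messenger RNA, and its promoter was 1 of 19083 baits with a listed loop or a table entry in promoter-capture Micro-C of mouse embryonic stem cells. The bait was taken by overlap with the RefSeq body of the gene extended by 2 kb on each side. It held 31 of the 84105 same-chromosome loops listed over 6 libraries, 13 of 33243 entries in the authors' deposited table for Brg1KD against Control and 15 of 34774 entries in that for Ino80KD against Control. The gene was chosen by its low log2 fold changes and small p-values for Brg1KD in the authors' deposited table, so its values in these libraries are given as a description, with no test of their own. Micro-C cuts fixed chromatin with micrococcal nuclease and ligates ends that lie close together, and the capture step keeps ligations that involve promoters.

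All libraries came from wild type E14 cells, a male mouse embryonic stem cell line grown in serum with LIF, harvested 48 h after transfection with esiRNA, a mixture of short RNAs made by digesting a longer double strand. Control cells received esiRNA against EGFP, a fluorescent protein from jellyfish. Brg1KD cells received esiRNA against Smarca4, the gene of Brg1, the ATPase of the esBAF remodeller, and Ino80KD cells esiRNA against Ino80, the ATPase of the INO80 remodeller. There were 2 libraries per group. By the batch labels, batch 1 holds replicate 1 of every group, batch 2 the other Control library and batch 3 the other library of each depletion, so among second replicates depletion and batch cannot be told apart. The labels do not state whether replicates came from separate cultures, so their spread could be technical. With no RNA data in these files, neither the knockdown nor the cell type was checked here. The lists held 12313 to 15385 same-chromosome loops, with the fewest in Brg1KD. A loop that a list does not hold scored under the authors' minimum of 5 and is not shown to be absent.

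The protein of Rbmxl2, also called hnRNP G-T, binds RNA and is known for its part in splicing during male meiosis, when the X chromosome that carries Rbmx is silenced. Promoters contact distant DNA as chromatin folds into loops and domains, and a listed contact does not say whether the gene is transcribed. The locus lies between olfactory receptor genes on mouse chromosome 7. Upstream is Nlrp14, an NLR family gene known from oocytes. Downstream follow Syt9, a synaptotagmin gene of vesicle release, Olfml1, which encodes a secreted olfactomedin-like protein, Ppfibp2, the gene of the scaffold protein liprin beta 2, Cyb5r2, a cytochrome b5 reductase gene, and Ovch2, an ovochymase gene of the serine protease family.

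The bait (mm10, chromosome 7, 107208325 to 107210184) covers 1120 bases before the start of Rbmxl2 and 740 bases from the start on. The gene runs from 107209445 to 107210916, so its last 732 bases lie on the neighbouring fragment and not on the bait. The sequences below, from RefSeq for GRCm38.p6, are the DNA just upstream of Rbmxl2 (chr7:107209195-107209444, plus strand), which is part of its bait, and that upstream of 2 genes among its contacts, Olfml1 (chr7:107567183-107567432, plus strand) and Cyb5r2 (chr7:107758203-107758282, minus strand, the part outside the gene). Capitals mark each match, on either strand, to the letters searched. These were the E-box CACGTG, the CCAAT box, the GC box written GGGCGG, the core of the E2F site written TCCCGC and the TATA box written TATAAA.
Rbmxl2: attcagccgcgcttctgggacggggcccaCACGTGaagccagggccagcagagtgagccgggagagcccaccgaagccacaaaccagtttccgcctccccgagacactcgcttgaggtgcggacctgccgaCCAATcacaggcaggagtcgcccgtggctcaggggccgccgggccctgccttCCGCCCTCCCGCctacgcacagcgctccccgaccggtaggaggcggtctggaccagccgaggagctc
Olfml1: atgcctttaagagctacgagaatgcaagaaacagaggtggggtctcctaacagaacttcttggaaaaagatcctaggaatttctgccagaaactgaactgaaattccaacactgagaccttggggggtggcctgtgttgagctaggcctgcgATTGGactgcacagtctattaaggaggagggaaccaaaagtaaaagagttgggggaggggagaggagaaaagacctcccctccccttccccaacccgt
Cyb5r2: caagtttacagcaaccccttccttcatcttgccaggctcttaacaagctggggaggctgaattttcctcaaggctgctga
The 250 bases upstream of Rbmxl2 held 1 E-box, 1 CCAAT box, 1 GC box and 1 E2F core, and no TATA box. The GC box and the E2F core lie end to end without overlap, from 67 to 56 bases before the start. Among 32851 promoter windows of the same length, 6.02% held the E-box, 33.8% the CCAAT box, 32.7% the GC box, 16.9% the E2F core and 12.4% the TATA box on either strand. The window of Rbmxl2 was 70% G and C with 23 CpG, against a median of 52.4% and 6 CpG over all windows, and that of Olfml1 was 50% G and C with 3 CpG. A match is a description of the letters and not a site of binding.

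In Control cells the Rbmxl2 bait was among the baits with the most listed loops, and all of them ran downstream over Syt9, Olfml1, Ppfibp2, Cyb5r2 and Ovch2. Control replicate 1 listed 10 loops and Control replicate 2 listed 8, where the median bait with a loop had 1. Of the baits with a loop, 0.418% had as many as Rbmxl2 in Control replicate 1 and 0.997% in Control replicate 2. The nearest contact was centred 301 kb and the farthest 581 kb from the start of the gene. No library listed a contact upstream, over Nlrp14 or the olfactory receptor genes beside it, so 31 of 31 loops pointed one way.

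**Figure D1:**
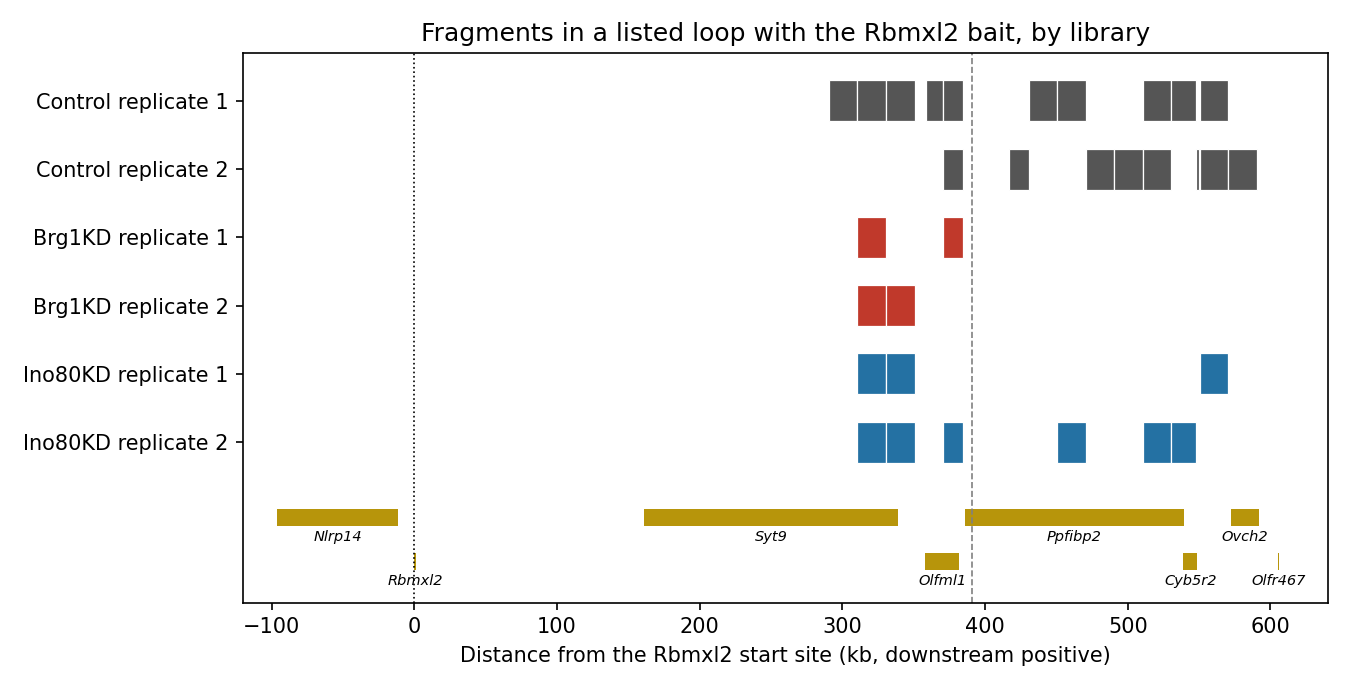
Fragments in a listed loop with the Rbmxl2 bait (blocks) in the 6 libraries (rows), by distance in kb from the start of the gene, with gene bodies below. The dotted line is the start of Rbmxl2 and the dashed line, at 391 kb, is where the farther entries of the authors' deposited tables begin; no Brg1KD block lies past it.

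After Brg1 depletion the list of Rbmxl2 contacts was short and held none of the distant ones. Brg1KD replicates 1 and 2 listed 2 loops each against 10 and 8 in Control, a mean of 2 (SD 0, n = 2) against 9 ± 1.41 (SD, n = 2), and the groups did not overlap. Of the 17310 baits with a listed loop, 7.89% had both Brg1KD libraries under both Control libraries, and 4.09% had both over. Among the 979 baits with 0.5 to 2 times as many loops as Rbmxl2 these were 17.8% and 7.05%, so a bait with this many loops was often in that class. Per 1000 same-chromosome loops of the library, Rbmxl2 had 0.162 (95% Wilson interval 0.0445 to 0.592) and 0.153 (0.0421 to 0.559) in Brg1KD against 0.650 (0.353 to 1.2) and 0.554 (0.281 to 1.09) in Control. These intervals cover counting error only, and those of the groups overlap. Within batch 1, which has 1 library per group, the numbers were 2 and 10.

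After Ino80 depletion the numbers lay between those of the other groups. Ino80KD replicates 1 and 2 listed 3 and 6 loops, a mean of 4.5 ± 2.12 (SD, n = 2), below both Control libraries and above both Brg1KD libraries. Both Ino80KD libraries lay under both Control libraries at 6.24% of baits with a loop and over both at 5.41%, and for baits with 0.5 to 2 times as many loops these were 11.5% and 12.1%. Both Brg1KD libraries lay under both Ino80KD libraries at 7.86% of baits with a loop and over both at 4.39%, and for baits with 0.5 to 2 times as many loops these were 20.1% and 7.46%. Between the depletions, which have batches 1 and 3 in common, Brg1KD had 2 loops to 3 in batch 1 and 2 to 6 in batch 3. The share of baits with as many loops as Rbmxl2 was 35.4% and 38.1% in the Brg1KD libraries, 18.9% in Ino80KD replicate 1 and 2.93% in Ino80KD replicate 2.

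The contacts fell into a nearer set over the end of Syt9 and Olfml1 and a farther set over Ppfibp2, Cyb5r2 and Ovch2, split at 391 kb. That boundary was chosen after seeing the data and is the position where the farther entries of the authors' deposited tables start. Of 15 distinct contacted fragments, 5 were nearer and 10 farther. In the farther set Control listed 5 and 7 loops, Brg1KD 0 and 0, and Ino80KD 1 and 3, with no overlap between either depletion and Control. Among the 236 baits with 0.5 to 2 times as many loops of that span, 18.2% had both Brg1KD libraries and 14.8% both Ino80KD libraries under both Control libraries. Among all 5095 baits with such a loop these were 4.71% and 4.06%. The nearer set held 5 and 1 loops in Control, 2 and 2 in Brg1KD and 2 and 3 in Ino80KD, and there the groups overlapped.

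In the nearer set 1 fragment was the most widely listed contact of the gene. It lies inside Syt9 (107520001 to 107540000) and was in 5 of 6 libraries, where it scored 8.39 in Control replicate 1, 5.26 and 6.51 after Brg1 depletion and 8.21 and 8.42 after Ino80 depletion. Scores come from separate lists and are compared only within a list. That contact scored above 87.1% of the same-chromosome loops in Control replicate 1, above 18.1% and 67.1% in the Brg1KD libraries and above 86.1% and 88.1% in the Ino80KD libraries. Control replicate 2 did not list it. The next fragment (107540001 to 107560000), over the end of Syt9, was in 4 libraries, at 11.06 in Control replicate 1, 7.53 in Brg1KD replicate 2 and 6.45 and 6.39 after Ino80 depletion. The end of Olfml1 (107580001 to 107593930) was met in 4 libraries too, at 6.31 and 7.1 in Control, 5.16 in Brg1KD replicate 1 and 5.07 in Ino80KD replicate 2. Brg1KD thus listed 3 distinct fragments, and each of them was also listed in Control.

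In the farther set, the highest score of Rbmxl2 in the list of Control replicate 1 was for the end of Ppfibp2 and most of Cyb5r2 (107740001 to 107757292), at 13.33, above 97.9% of that library's same-chromosome loops. Ino80KD replicate 2 listed the same fragment at 5.72, above 41.0% of its list. Control replicate 2 listed instead the bait of Cyb5r2 itself (107757293 to 107759152), at 5.91, the only same-chromosome loop of Rbmxl2 with another bait. The body of Ppfibp2 was met by 4 loops in each Control library, by 0 in each Brg1KD library, and by 0 and 3 in Ino80KD. A fragment between Cyb5r2 and Ovch2 (107760001 to 107780000), with no protein-coding gene on it, was listed in both Control libraries, at 5.31 and 8.15, and in Ino80KD replicate 1 at 5.21. The end of Ppfibp2 (107720001 to 107740000) was likewise in both Control libraries, at 5.07 and 7.71, and in Ino80KD replicate 2 at 6.4.

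Single fragments recurred less than the zone as a whole. Of the 31 loops, 23 (74.2%) had a loop of another library centred within 5 kb. The like share over all baits was not computed. Of the 15 fragments, 8 were listed in 1 library and 0 in all 6. Fragments listed in Control only were these same 8, each in a single Control library. Another 4 were in Control and Ino80KD but not in Brg1KD. Neither depletion listed a fragment that Control lacked. How often other baits show such a split of fragments was not computed. Near the authors' minimum, the lowest listed scores were 5.07 in Control replicate 1 and in Ino80KD replicate 2, and values just below 5 are not in the lists.

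The authors' deposited tables hold nearer and farther entries of Rbmxl2, which join 11 neighbouring fragments each and overlap one another. The boundary at 391 kb was taken from these entries, so they give no second support for the split. No header states which way the fold changes run. Of loops listed in both Brg1KD libraries and neither Control library, Rbmxl2 left out, 83.3% had a median value above 0 in the authors' deposited table, against 17.1% of those in both Control libraries only, while the Ino80KD table had 86.4% and 15.4%. Values below 0 are therefore read as lower after depletion. For Brg1KD the authors' deposited table listed 5 nearer entries, which reached from Syt9 to the start of Ppfibp2, with log2 fold changes from -0.27 to -0.14 and unadjusted p from 0.422 to 0.684. The 8 farther entries, over Ppfibp2, Cyb5r2 and Ovch2, ran from -1.45 to -0.83 in the authors' deposited table, with p from 0.00128 to 0.0317. Since they overlap, these 8 are not independent measurements. All 13 were below 0, where 51.3% of the whole Brg1KD table was, and 8 of 13 were lower with a p below 0.05 before adjustment, where 0.827% of the whole table was. This contrast chose the gene, so nothing is read from those counts.

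The entry with the smallest p (107626282 to 107800000) had a log2 fold change of -1.19 ± 0.37 (SE) in the authors' deposited table, a ratio of 0.437, at a mean signal of 50.1. Its p of 0.00128 was the smallest but 1 of the 33243, and its adjusted p was 1.00. A region that shares no base with it, over Syt9 and Olfml1 (107420001 to 107593930), was at -0.27 ± 0.34 in the authors' deposited table. The authors' deposited table held 4742 entries of other baits at a mean distance of 400 to 600 kb, with -0.03 as their median and -0.56 and 0.52 as their 5th and 95th percentiles. Each of the 8 farther entries of Rbmxl2 lay under that lower percentile. They overlap, and the gene was chosen by its low values in this contrast, so nothing is read from their place. The lowest value of all, -1.45 ± 0.50 in the authors' deposited table, came from the region out to Olfr467 (107700001 to 107815319) with a mean signal of 28.9, where the error was also among the largest.

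For Ino80KD the authors' deposited table gave the 5 nearer entries at -0.07 to 0.01, with p from 0.824 to 0.984. The 10 farther entries in the authors' deposited table ran from -0.70 to -0.44, with p from 0.0482 to 0.263. Of the 15 entries 14 were below 0, where 49.6% of the whole Ino80KD table was. These entries overlap, and Ino80KD listed no fragment of Rbmxl2 that Control lacked, so nothing is read from that count. A single entry had a p below 0.05 before adjustment (107640001 to 107800468), at -0.67 ± 0.34 in the authors' deposited table with an adjusted p of 1.00, where 0.382% of the whole table was lower in that sense. At 400 to 600 kb the authors' deposited table for Ino80KD put other baits at a median of -0.08, with 61.4% below 0. Their 5th and 95th percentiles were -0.57 and 0.49, so some farther Ino80KD entries of Rbmxl2 lay under the lower one and others above it. Within 1 Mb of Rbmxl2 the authors' deposited tables put other baits at medians of -0.13 for Ino80KD, with 69.1% below 0, and -0.02 for Brg1KD, with 55% below 0. The tables share their Control libraries, so these values are not independent. At the 13 regions in both of the authors' deposited tables the Brg1KD value was below the Ino80KD value in 13. The regions overlap and the gene was chosen by its low Brg1KD values, so nothing is read from that count. The difference was not tested.

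**Figure D2:**
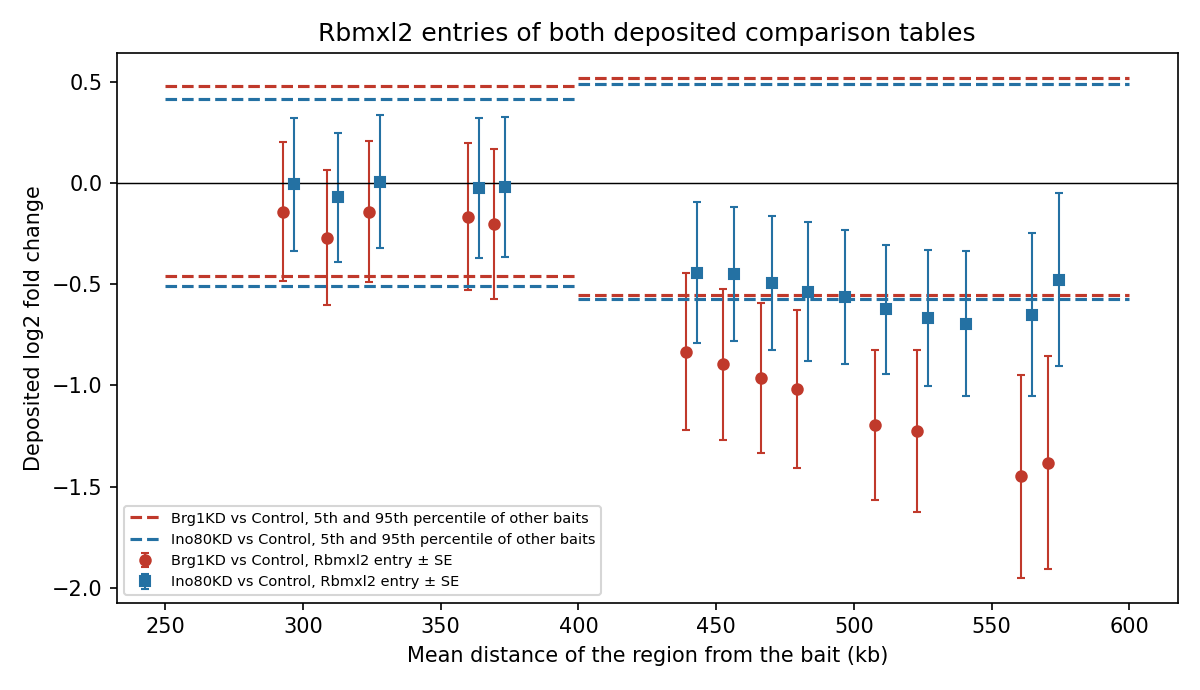
Log2 fold change of each Rbmxl2 entry in the authors' deposited tables (points, bars are the SE given there) by mean distance of the region from the bait in kb, for Brg1KD (circles) and Ino80KD (squares) against Control. Dashed lines are the 5th and 95th percentiles of other baits at 250 to 400 kb and 400 to 600 kb. The farther Brg1KD points, from -1.45 to -0.83, lie under them and the nearer ones do not. The gene was chosen by its low Brg1KD values. Some farther Ino80KD points also lie under the lower Ino80KD line.

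Seen from the other end, entries of the contacted genes that reach over Rbmxl2 ran from -0.41 to 0.26 for Brg1KD in the authors' deposited table. The Cyb5r2 bait had an entry over the Rbmxl2 bait (107147966 to 107243761) at -0.01 ± 0.44 for Brg1KD and 0.12 ± 0.41 for Ino80KD in the authors' deposited tables, and a second one for Ino80KD (107167730 to 107300000) at -0.19 ± 0.37. That region also takes in part of Nlrp14 and fragments on both sides of Rbmxl2, so it is wider than the bait. From Olfml1, 3 entries over the Rbmxl2 bait were at 0.16 to 0.26 for Brg1KD in the authors' deposited table, and from Ppfibp2 the values for Brg1KD were -0.13 to 0.07. From Syt9 the value for Brg1KD was -0.41 ± 0.25 in the authors' deposited table, with p = 0.0989. For Ino80KD the authors' deposited table put entries over Rbmxl2 from Olfml1, Ppfibp2 and Syt9 between -0.38 and 0.12. Each of these entries had a p over 0.05. The first farther entry of Rbmxl2 for Brg1KD, at -0.83, ends before the Cyb5r2 bait. The farther entries that take in that bait ran from -1.45 to -0.96 for Brg1KD in the authors' deposited table. They join other fragments than the Cyb5r2 entry, which had an SE of 0.44, and the difference was not tested.

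Loops of other baits onto the fragments beside the Rbmxl2 bait, which are no loops of the bait and were counted apart, numbered 2 and 0 in Control, 0 and 1 in Brg1KD and 3 and 3 in Ino80KD. On the side that carries the end of Rbmxl2 (107210185 to 107220000), a bait at the start of Ppfibp2 (107593931 to 107595790) had a loop of score 9.06 in Ino80KD replicate 1 and 7.68 in Ino80KD replicate 2, and another bait inside Ppfibp2 (107605724 to 107607583) had one in Control replicate 1 at 6.12. Olfml1 was listed with that fragment in Control replicate 1, at 5.38, and in both Ino80KD libraries, at 5.75 and 5.32. On the upstream side (107200001 to 107208324) Cyb5r2 had a loop in Brg1KD replicate 2, at 5.11, and in Ino80KD replicate 2, at 6.89. With these loops added the totals were 12 and 8 in Control, 2 and 3 in Brg1KD and 6 and 9 in Ino80KD, and Ino80KD then overlapped Control.

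Among its neighbours, Syt9 was the other bait with many loops. The Syt9 bait listed 5 and 8 loops in Control, 0 and 2 in Brg1KD and 9 and 11 in Ino80KD, so that Brg1KD was below Control as at Rbmxl2 and Ino80KD was above it. It is among the 979 baits with 0.5 to 2 times the loops of Rbmxl2. Of these, 17.8% had both Brg1KD libraries under both Control libraries and 12.1% both Ino80KD libraries over both. Of all baits with a loop these were 7.89% and 5.41%. The 9 entries of Syt9 for Brg1KD ran from -0.71 to -0.24 in the authors' deposited table, with none under p = 0.05, and its 18 entries for Ino80KD from -0.25 to 0.24. Olfml1 listed 5 and 2 loops in Control, 1 and 3 in Brg1KD and 2 and 3 in Ino80KD, so the groups overlapped. Cyb5r2 listed 1 or 2 in every library, and its entries for Brg1KD were -0.08 and -0.01 in the authors' deposited table. Its 1 loop in Control replicate 2 was the one with the Rbmxl2 bait, which the summed numbers below include. The nearest bait of all, 33.4 kb downstream and on no protein-coding gene (107241902 to 107243761), had 0 and 0 loops in Control, 1 and 2 in Brg1KD and 0 and 1 in Ino80KD. Of all baits with a loop, 4.09% had both Brg1KD libraries over both Control libraries. Over these and the remaining neighbours, 13 baits in all, the summed numbers were 16 and 15 in Control, 7 and 18 after Brg1 depletion and 15 and 27 after Ino80 depletion. The Brg1KD sum was below both Control libraries in replicate 1 and above both in replicate 2. Within batch 1 the sums were 16 in Control, 7 in Brg1KD and 15 in Ino80KD. The 18 and 27 are from batch 3, which has no Control library.

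**Figure D3:**
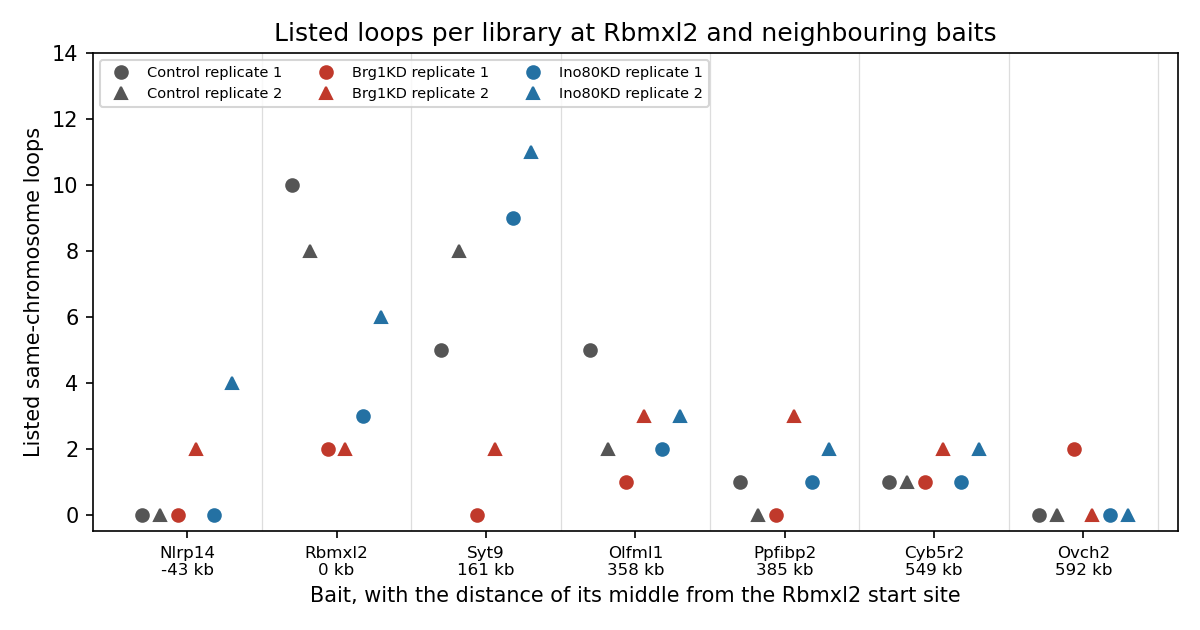
Listed same-chromosome loops (vertical axis) in each of the 6 libraries at the Rbmxl2 bait and at 6 neighbouring baits, ordered by distance in kb from the start of Rbmxl2; circles are replicate 1 and triangles replicate 2. Rbmxl2 had 10 and 8 loops in Control and 2 and 2 in Brg1KD, and Syt9 had 9 and 11 in Ino80KD.

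Related genes gave little to set beside it. Rbmx, the X-linked parent gene, listed 1 loop over all libraries, in Ino80KD replicate 1, and had no entry in either table. Rbmxl1, another retrogene of Rbmx, listed 1 loop, in Brg1KD replicate 2, with an entry of -0.04 ± 0.37 in the authors' deposited table for Brg1KD. Rbmy had no bait here. Of 8 other autosomal retrogenes of X-linked genes, 6 had a bait and 5 an entry for Brg1KD, and their median was 0.02 in the authors' deposited table against -0.01 over all baits. At its entry of smallest p, Utp14b, a retrogene needed for spermatogenesis, was at -0.22 ± 0.25 and Pgk2, a testis phosphoglycerate kinase gene, at 0.21 ± 0.44 in the authors' deposited table. Of 23 germ cell and meiosis genes, 15 had an entry for Brg1KD, their median was 0.00034 in the authors' deposited table, and 0 had an entry with p below 0.05 in either direction for either depletion. At the entry of smallest p, Dazl, an RNA-binding protein gene of germ cells, was at -0.53 ± 0.41 and Syce1, of the synaptonemal complex, at -0.58 ± 0.47 in the authors' deposited table, where the median over the 9 entries of Syce1 was -0.10. Meiob, next by smallest p for Brg1KD, went the other way, at 0.30 ± 0.26 in the authors' deposited table. Of 8 genes of RNA-binding partners, 2 had an entry for Brg1KD and 3 for Ino80KD. Safb and Safb2, which share 1 bait, had their lowest p for Ino80KD at 0.64 ± 0.31 in the authors' deposited table, with a p of 0.0425 before adjustment, where 0.912% of that whole table was higher with a p below 0.05.

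By Pearson correlation of loops per 1000 over the 6 libraries, 627 baits with a gene end on the bait and 0.5 to 2 times the loops of Rbmxl2 were ranked, and 4 of them passed 0.9. With 6 points from shared libraries this is a description only. The most similar baits were those of Rpl28, a ribosomal protein gene (0.95), Btnl1, a butyrophilin-like gene (0.93), Skint1, a gene of thymic and skin T cell selection (0.91), the shared bait of Sphk2, Rpl18 and Fam83e (0.90) and Pkp3, a desmosome gene (0.88). Rpl28 listed 6 and 4 loops in Control, 1 and 0 in Brg1KD and 2 and 4 in Ino80KD. In the authors' deposited table its 7 entries for Brg1KD had 0.0020 as their median, and those of Rbmxl2 had -0.90. The medians for Brg1KD were 0.02 at Btnl1, -0.21 at Skint1 and -0.15 at Pkp3 in the authors' deposited table, and the shared bait of Sphk2 had no entry. Syt9, beside Rbmxl2, was in place 132 at 0.41.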

How the data were processed

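Promoter-capture Micro-C of 6 libraries was analysed from the files the authors deposited. Coordinates are mm10, and the authors used bedtools, per the submitters' processing notes. The loop caller, not given in the sources used here, was not rerun. Each list of the authors gives a score per loop, from 5 up, and was used for positions and for ranks within the list. The authors' comparison tables hold, per the file headers, a mean signal, a log2 fold change, its standard error, a score (the ratio of both) and p-values before and after adjustment. They were described and not refitted. The files used here give no counts per library, the depth is unknown, and no test across libraries was made.

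From the files were computed, with Python 3.11.15, pandas 2.3.3 and scipy 1.17.1, the loops with the bait at either end, their distance from the RefSeq start to the fragment's middle, genes overlapping each fragment (GRCm38.p6, the coordinates of mm10), and means weighted by inverse squared SE. The counting, ranking and weighted means were tested on simulated data. Named genes were those on contacted regions, 5 baited genes on either side, 4 gene lists, and the 5 baits most alike. Every member, list and rule was chosen with earlier results of these data known. Alternatives are given in the closing section.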

Additional observations from a re-analysis of the deposited data

Results flagged for a closer look

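One signal lay outside the same-chromosome loops. Ino80KD replicate 2 listed an interchromosomal loop between the Rbmxl2 bait and the bait inside Pcmtd2 (chromosome 2, 181843334 to 181845193) at a score of 5.26, close to the minimum of 5. The other 5 libraries, both Control libraries among them, listed 0 such loops of Rbmxl2.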

How the results depend on the processing

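No paired analysis was possible because these results come from no test and the files used here hold no counts per library to fit. The ratio of listed loops Brg1KD to Control was 0.222. It was 0 with a minimum score of 8, 0.5 with all baits within 50 kb, 0.262 per 1000 loops and 0.2 to 0.25 when each library was left out. For Ino80KD to Control it was 0.5, then 0.778 within 50 kb and 0.333 to 0.667 with a library left out. For Brg1KD to Ino80KD it was 0.444, then 0 at a minimum of 8, 0.667 in batch 1 and 0.333 to 0.667 with a library left out, the highest without Ino80KD replicate 2. No setting tried turned these 3 ratios above 1. The ratio of nearer loops turned: for Brg1KD to Control from 0.667 to 2 without Control replicate 1 (0.4 to 2 with a library left out), and for Ino80KD to Control from 0.833 to 2.5 without it (0.5 to 2.5 with a library left out, 0.4 in batch 1) and to 1.33 with the boundary 40 kb closer. That library alone held 5 of the 6 nearer Control loops. Farther loops had a ratio of 0 for Brg1KD to Control in each setting except the closer boundary, where it was 0.0667. The log2 fold change of -1.19 in the authors' deposited table became -0.67 as a weighted mean and -0.27 among the 2 of 13 entries above the table's median signal, which are both nearer entries. The share of loops found in another library rose from 74.2% to 100% with 20 kb allowed, about 1 fragment. Batch 3 and every setting for nearer and farther loops were chosen after seeing the data. With 2 libraries per group and up to 10 loops each, differences of a few loops were not resolvable.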

Other observations

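Upstream of Rbmxl2 the baits listed few loops and none with Rbmxl2. A bait inside Nlrp14 (107165870 to 107167729), centred at -42.6 kb from the start of Rbmxl2, listed 0 and 0 loops in Control, 0 and 2 in Brg1KD and 0 and 4 in Ino80KD, all of them in replicate 2 of the depletions, which form batch 3. Its entries in the authors' deposited tables had medians of -0.00035 for Brg1KD and 0.04 for Ino80KD. The olfactory receptor gene Olfr17 had 3 entries of 0.49 to 0.63 for Brg1KD in the authors' deposited table, with a smallest unadjusted p of 0.103. It listed 0 and 0 loops in Control, 1 and 2 in Brg1KD and 1 and 0 in Ino80KD. Both Brg1KD libraries lay over both Control libraries at 4.09% of all baits with a loop. Beyond the contacts of Rbmxl2 the Ovch2 bait listed 2 loops in Brg1KD replicate 1 and 0 in the other 5 libraries.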
